A study of Homo sapiens with 12 samples.

Results

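Hypoxia targets and enzymes of glycolysis were examined as a set of 40 genes named by symbol, across 4 groups of human breast cancer cells. A gene was read from the probe set whose only platform symbol it is, and from the brightest one where there were several. By that rule 38 of the 40 genes were measured, among 18417 genes in all. The set, and the lists read beside it, were chosen with earlier results of these data known. Their shares set against all genes are therefore descriptions and no independent test. CA9, a cell-surface carbonic anhydrase, had no probe set of its own symbol, and PGAM1, the phosphoglycerate mutase, is named only on 5 probe sets that also name PGAM4.

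RNA was read on Affymetrix Human Gene 1.0 ST arrays from cells of the 1833 subline, a derivative of MDA-MB-231 known for spreading to bone. MDA-MB-231 is a triple-negative breast cancer line. The series asks which genes HMGA2, Tet1 and HOXA9 regulate in these cells. Groups are called here by their labels, as arrays labelled shHMGA2, Tet1, HOXA9 and control. The shHMGA2 group has 3 arrays of cells transduced with an HMGA2 shRNA in the pLKO.1 lentivirus and kept in puromycin. The Tet1 group has 2 arrays of cells carrying an inducible, Flag-tagged Tet1 in pLVX-TRE3G together with the Tet-On 3G regulator, selected in puromycin and G418. The HOXA9 group has 2 arrays of cells with an inducible HOXA9 in the same vector, regulator and selection. The control group has 3 arrays of the subline, with no statement in the sources used here on whether they carried a vector or met a selection drug. All cells grew in serum-supplemented medium with penicillin and streptomycin, and the Tet1 and HOXA9 cells grew in Tet System Approved serum. The inducer, its dose and time, and whether the lines are single clones are not stated either. The labels call the arrays biological replicates and say no more of their origin, so every p-value measures only the spread between these samples, and the number of arrays limits the precision.

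All values below are log2 expression levels of a probe set or differences between them, and no level is set against that of another gene. The arrays fell into 2 sets with no group in both. Pairwise correlations over all probe sets were 0.9865 to 0.9977 within the shHMGA2 and control arrays, 0.993 to 0.9972 within the Tet1 and HOXA9 arrays, and 0.9455 to 0.9657 between the sets. Array medians were 7.66 to 7.71 in the Tet1 and HOXA9 arrays and 7.21 to 7.28 in the shHMGA2 and control arrays. For the Tet1 and HOXA9 samples the label fields disagree on the subline, reading 1834 in the source name and 1833 in the title and cell line. Array set, subline, vector, selection and serum therefore cannot be told apart from the construct in any comparison of Tet1 or HOXA9 with control. In shHMGA2 against control, vector and selection cannot be told apart from the shRNA, since neither is stated for control. The targeted genes were looked at first. The only probe set that names HMGA2 is shared with ELAC2 and measured 8.93, 9.02 and 8.47 in the arrays labelled shHMGA2, 10.43 and 10.42 in those labelled Tet1, 10.41 and 10.41 in those labelled HOXA9, and 9.55, 9.65 and 9.48 in control. TET1 measured 8.72, 8.92 and 9.29 in the arrays labelled shHMGA2, 7.16 and 6.98 in those labelled Tet1, 7.20 and 7.40 in those labelled HOXA9, and 6.59, 6.45 and 6.66 in control. The arrays labelled Tet1 thus did not exceed those labelled HOXA9 in TET1, and HOXA9 is not analysed here because no probe set names it. Whether the TET1 probe set reads the Tet1 construct was not tested, so expression of that construct is not judged here. The mean over 9 markers of MDA-MB-231 cells was 11.33 to 11.50 in the arrays labelled shHMGA2 and 11.70 to 11.74 in control. It was 12.21 to 12.22 in Tet1 and 12.24 to 12.28 in HOXA9. That mean hides dimmer markers. S100A6 measured 7.85, 7.73 and 7.71 in the arrays labelled shHMGA2 and 8.42, 8.25 and 8.58 in control. For TGFBI the values were 8.15, 8.26 and 8.45 in shHMGA2 and 8.16, 8.45 and 8.37 in control. CDKN2A and MTAP, which lie in a stretch that MDA-MB-231 is known to lack, averaged 8.74 to 9.21 in the arrays labelled shHMGA2, 6.64 to 6.66 in Tet1, 6.54 to 6.68 in HOXA9 and 6.61 to 6.96 in control.

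When oxygen is short, the alpha subunits of the hypoxia-inducible factors (HIF) escape hydroxylation by the EGLN enzymes and breakdown through VHL. They pair with ARNT and switch on genes that share the short DNA motif ACGTG in their control regions. The best-known targets take glucose into the cell, speed its breakdown to lactate, hold pyruvate back from the mitochondria, remove mitochondria, and call in blood vessels. Tumour cells often run glycolysis hard with oxygen present as well, and several of these genes also answer to other signals such as amino acid shortage, MYC or growth factors.

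Promoter sequence was searched first for the HIF core motif, since it is the sequence feature these genes are known for. RefSeq windows on GRCh38.p14, the 250 bases before the start listed for each gene, were at hand for 36 of the 40 genes. NDRG1, VEGFA, BNIP3L and SLC2A3 are named only. ACGTG, read on either strand, stood in the windows of 17 of the 36 genes (47.2%), against 18.6% of the 27305 genes with a window. GCGTG, the other common form of the core, stood in 16 of 36 (44.4%), against 31.9% of all. CACGTG, the E-box, bound among others by BHLHE40 and by MXI1 paired with MAX, which holds ACGTG on both strands, stood in 6 of 36 (16.7%), against 6.46% of all. Among the 13 genes with a window that were at least 2-fold higher in both Tet1 and HOXA9 arrays than in control as deposited, 7 held ACGTG (53.8%), against 9 of the 21 other measured genes with a window (42.9%). The windows of KDM3A and PFKFB4, which are among the 13 and lack ACGTG, lie wholly inside the annotated gene. So do those of GAPDH, GPI, PFKP and PKM among the others. The outer ends of these genes were not searched. These are descriptions of letters in a window, and no test was made. The stretches below are shown for the 7 genes at least 2-fold higher in both that hold the motif. They are written in the direction of the gene with ACGTG or its reverse complement CACGT in capitals.
ALDOC, chr17:28576896-28576948, minus strand: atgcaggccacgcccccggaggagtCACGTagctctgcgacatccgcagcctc
ANGPTL4, chr19:8363905-8363950, plus strand: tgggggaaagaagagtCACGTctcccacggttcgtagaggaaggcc
ANKRD37, chr4:185396673-185396727, plus strand: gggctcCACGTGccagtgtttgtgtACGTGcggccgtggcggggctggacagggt
BHLHE40, chr3:4979263-4979317, plus strand: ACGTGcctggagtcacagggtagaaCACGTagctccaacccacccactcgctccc
BNIP3, chr10:131982027-131982081, minus strand: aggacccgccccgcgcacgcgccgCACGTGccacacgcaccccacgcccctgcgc
DDIT4, chr10:72273774-72273828, plus strand: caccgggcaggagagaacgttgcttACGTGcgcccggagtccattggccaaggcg
ENO2, chr12:6914437-6914491, plus strand: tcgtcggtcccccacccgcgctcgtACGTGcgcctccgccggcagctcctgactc

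ANKRD37 and BHLHE40 each show the core more than once within these 55 bases, and in ANKRD37 and BNIP3 a copy is part of the E-box. The motif was also present in genes that passed the test in neither comparison with control, and 3 of those are shown for contrast. The stretch of GPI lies inside the annotated gene, ahead of a start further downstream than the gene's outer end.
EGLN1, chr1:231422288-231422325, minus strand: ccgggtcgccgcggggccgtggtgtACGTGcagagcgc
ERO1A, chr14:52695643-52695697, minus strand: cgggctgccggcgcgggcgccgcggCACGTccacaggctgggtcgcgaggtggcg
GPI, chr19:34364805-34364859, plus strand: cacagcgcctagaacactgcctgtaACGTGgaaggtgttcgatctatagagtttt

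In the arrays labelled shHMGA2, glucose transporters, several glycolytic enzymes and some hypoxia genes were lower than in control by modest amounts, while STC2, KDM3A and PDK3 were higher. Outside glucose transport, glycolysis and pyruvate, 5 of the 17 measured genes were called lower and 2 higher. Of the 38 measured genes, 12 fell (31.6%) and 3 rose (7.89%), where 12.6% of all 18417 genes were called lower and 13.6% higher (limma, adjusted p under 0.05 over all genes). All 15 kept call and direction under both other scalings. After joint quantile normalization 14 were lower and 3 higher, where 14.2% and 12.8% of all genes were. Under equal array medians 13 were lower and 3 higher, where 14.9% and 11.4% were. The falls ran over log2 differences of -0.22 to -0.68, and STC2 was the 1 gene called past 2-fold (1.12% of all genes were so higher and 0.353% lower). The median difference over the 38 genes was -0.12, against -0.029 over all genes. In 13 genes every shHMGA2 array lay below every control array (34.2%, against 21.7% of all genes), and in 5 every one lay above (13.2%, against 18.8%). Leaving out 1 array of either group at a time left 9 to 13 of these genes lower and 3 higher.

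Values of other genes moved with this comparison. CDKN2A and MTAP were 2.48 and 1.72 higher on the log2 scale in the arrays labelled shHMGA2. Of 9 genes typical of the embryonic kidney line HEK293, 5 were called higher, where 13.6% of all genes were. The mean of the 9 was 7.42 to 7.63 in shHMGA2 and 6.59 to 6.69 in control. HOXD10, NEFM and NEFL rose most, and the median difference of the 9 was 0.25. In CDH6, LHX1, PAX2 and TFAP2B the shHMGA2 and control arrays overlapped. Of the 9 measured MDA-MB-231 markers 6 were called lower, where 12.6% of all genes were, led by S100A6 at -0.65, EGFR at -0.45 and AXL at -0.40. Fewer cells of a type and less RNA per cell cannot be told apart in such bulk samples, and the part of these markers in the results was not tested. Control array 2 was also the lowest of the 3 control arrays in 26 of the 38 genes (68.4%), against 30.8% of all genes. The median SD of the 38 genes was 0.080 among shHMGA2 arrays and 0.11 among control arrays, against 0.073 and 0.075 over all genes.

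**Figure D1:**
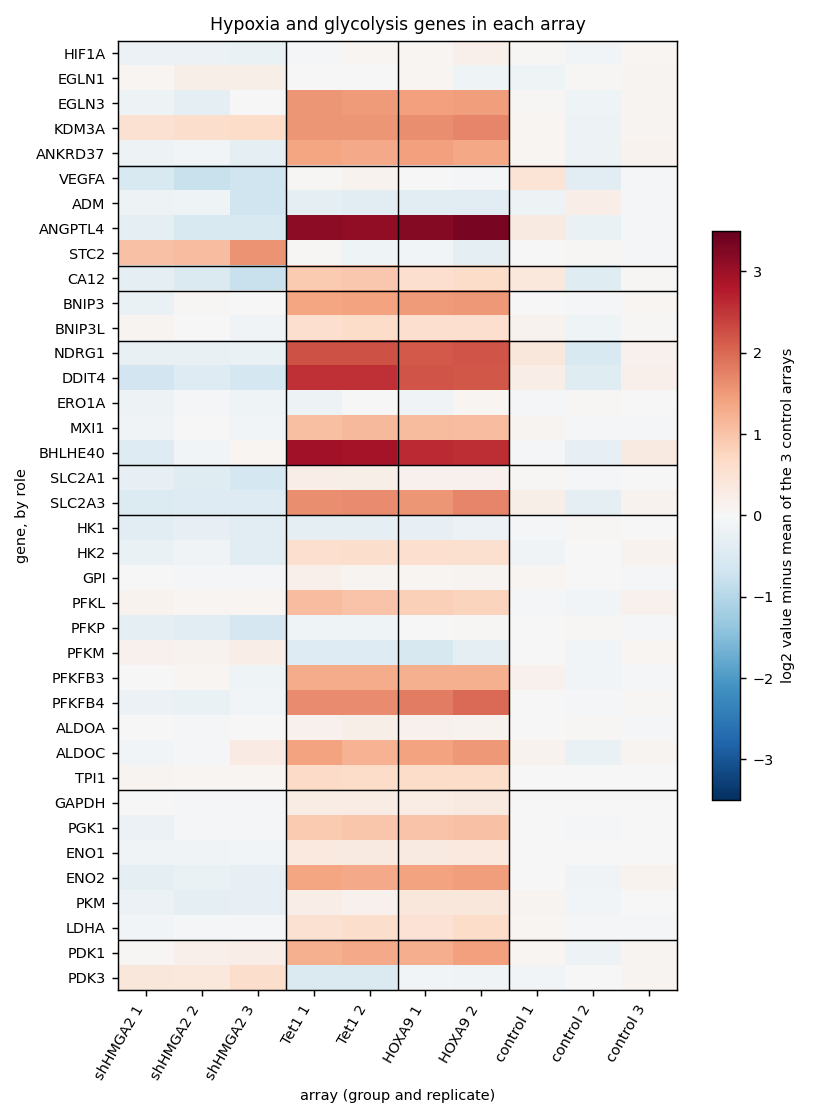
Each row is a gene, grouped by role, and each column an array; colour gives the log2 value minus the mean of the 3 control arrays. ANGPTL4, BHLHE40, DDIT4 and NDRG1 stand out in the Tet1 and HOXA9 arrays, which differ from control in array set as well as in construct, and STC2 and KDM3A in the shHMGA2 arrays.

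Between the arrays labelled Tet1 and HOXA9, which share vector, selection, serum and array set, none of the 38 genes passed the test (limma, adjusted p under 0.05), where 0.114% of all genes were called higher and 0.32% lower. None passed after joint quantile normalization either, where 0.299% of all genes were higher and 0.489% lower, nor with equal array medians, where 0.114% were higher and 0.309% lower. At an unadjusted p under 0.05 there were 5 of the 38 genes and 1687 of all genes. Differences ran from -0.39 for PDK3 to 0.38 for DDIT4 on the log2 scale, and all 95% confidence intervals lay between -0.59 and 0.75. For 32 genes the interval lay within 0.5 of 0, and for all 38 within 1. The 2 Tet1 arrays lay above the 2 HOXA9 arrays in 14 genes (36.8%, against 20.8% of all genes) and below them in 12 (31.6%, against 20.5%). The closest approach to a call was PDK3, with 8.79 and 8.80 in the Tet1 arrays and 9.20 and 9.16 in the HOXA9 arrays (95% interval of the difference -0.59 to -0.19, limma adjusted p = 0.14). With only 2 arrays a group, a p that misses the threshold does not show that the lines were alike.

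**Figure D2:**
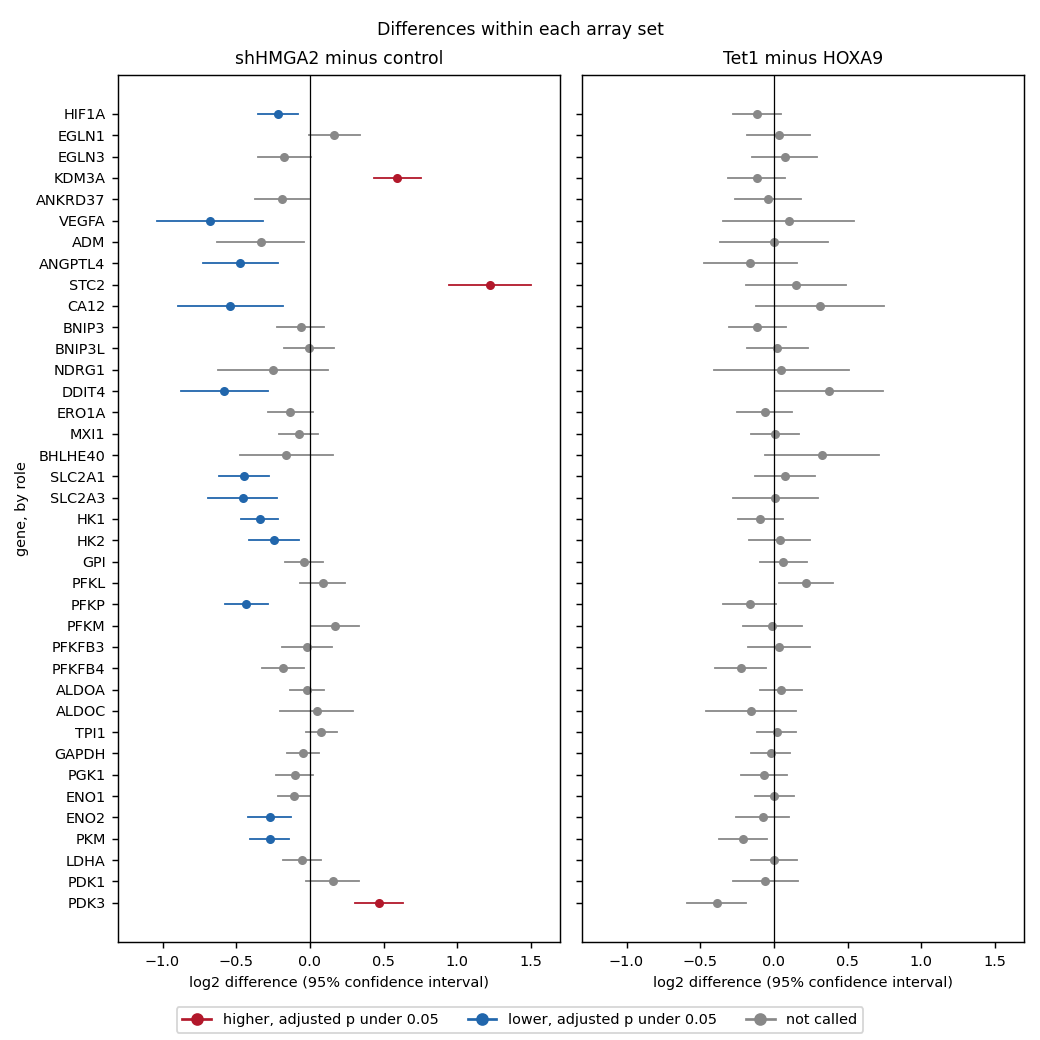
Points give the log2 difference of each gene and bars its 95% confidence interval, for shHMGA2 minus control on the left and Tet1 minus HOXA9 on the right. In the left panel 12 genes are called lower and 3 higher; in the right panel none is called.

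Against control, the arrays labelled Tet1 and those labelled HOXA9 both showed higher values of most hypoxia targets, led by ANGPTL4, BHLHE40, DDIT4 and NDRG1, and of particular isoforms at many steps of glycolysis. Both comparisons use the same 3 control arrays. All genes together were shifted, with a median difference of 0.25 in Tet1 and 0.24 in HOXA9. Values are therefore also given for equal array medians, the scaling that lowered the median of all genes most. That scaling made the median negative, at -0.22 in Tet1 and -0.21 in HOXA9, so values under it carry a downward shift. After joint quantile normalization the median of all genes was -6e-04 in Tet1 and -0.020 in HOXA9. In the Tet1 arrays 27 of 38 genes were called higher (71.1%) and 4 lower (10.5%), where 53.9% of all genes were higher and 23.2% lower. In the HOXA9 arrays 25 were higher (65.8%) and 3 lower (7.89%), where 54% of all genes were higher and 21.6% lower. At least 2-fold higher were 16 genes in the Tet1 arrays (42.1%, against 6.44% of all genes) and 16 in the HOXA9 arrays (42.1%, against 5.6%), and 15 of these were the same. Equal array medians left 8 genes reaching 2-fold in Tet1 (21.1%, against 1.41% of all genes) and 9 in HOXA9 (23.7%, against 1.48%). After joint quantile normalization 15 did in Tet1 (39.5%, against 2.35%) and 14 in HOXA9 (36.8%, against 2.3%). No measured gene of the set was called 2-fold lower in either as deposited, where 2.3% of all genes in Tet1 and 1.86% in HOXA9 were. Because the set was chosen with earlier results of these data known, these shares describe it and do not test it.

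The scaling changed the counts. After joint quantile normalization 22 of the genes were higher and 5 lower in Tet1, where 32.6% and 33.3% of all genes were, and 23 higher and 3 lower in HOXA9, where 29.7% and 34% were. With equal array medians 19 were higher and 14 lower in Tet1, where 21.9% and 51.4% of all genes were, and 18 higher and 14 lower in HOXA9, where 20.3% and 51.1% were. The genes called in the same direction under all 3 scalings were 19 higher and 3 lower in Tet1, and 18 higher and 2 lower in HOXA9. The median difference of the set was 0.64 in Tet1 and 0.60 in HOXA9, which is 0.39 and 0.36 above that of all genes.

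**Figure D3:**
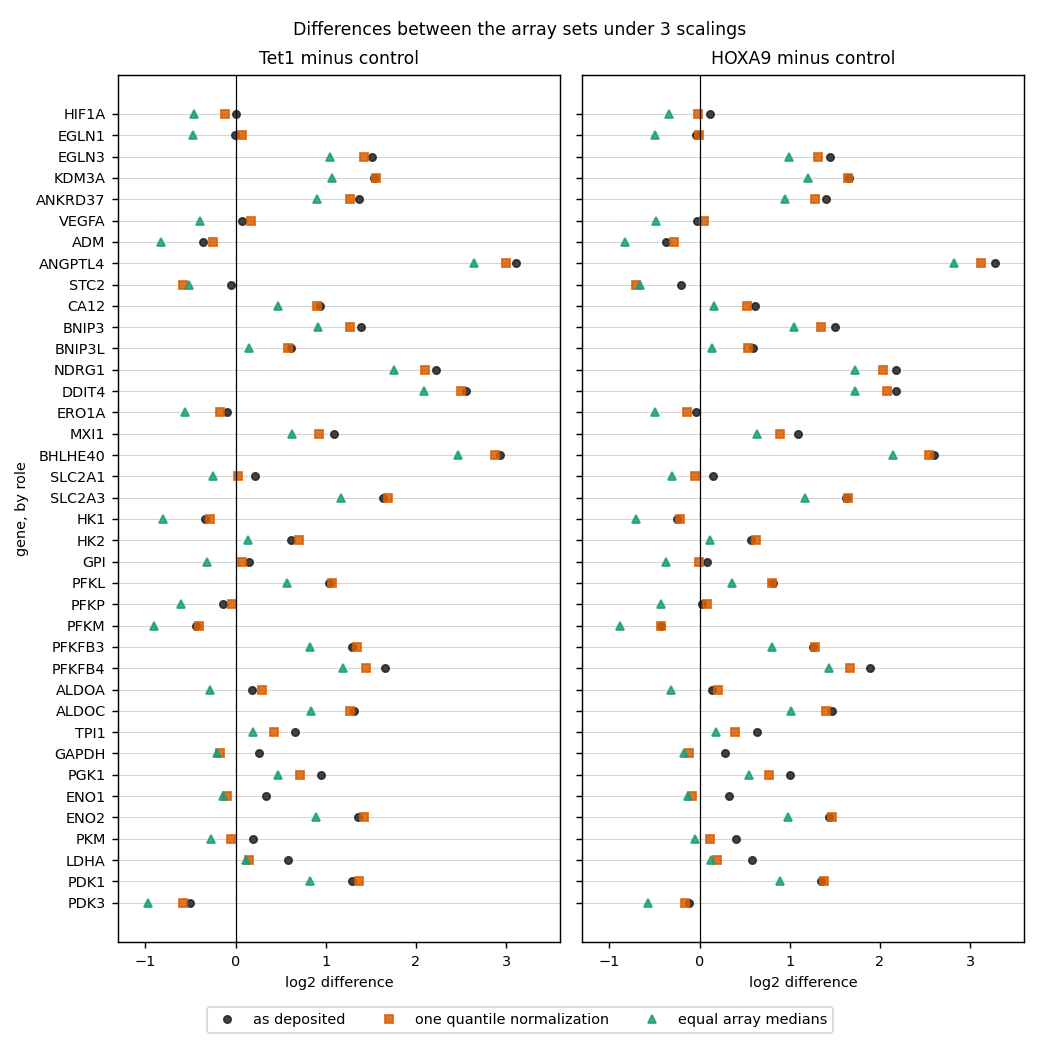
Log2 difference of each gene for Tet1 minus control (left) and HOXA9 minus control (right), as deposited (circles), after joint quantile normalization (squares) and with equal array medians (triangles). ANGPTL4, BHLHE40, DDIT4 and NDRG1 stay highest under every scaling, the lowest of these values being 1.72 for NDRG1 and DDIT4 in HOXA9 with equal array medians, whereas GAPDH and ENO1 change sign.

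**Figure D4:**
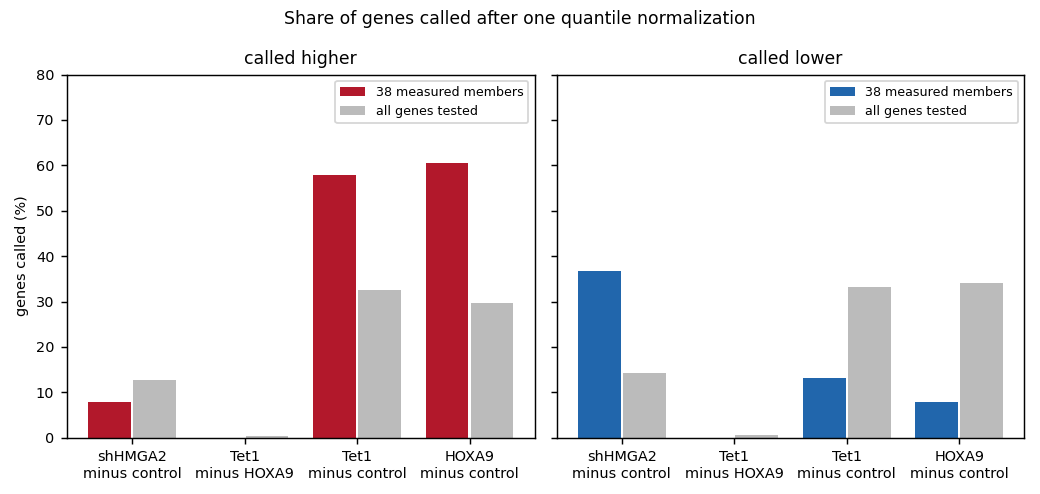
Bars give the percentage of genes called higher (left) or lower (right) by limma after joint quantile normalization, for the 38 measured genes of the set (colour) and for all 18417 genes (grey). The set stands at 57.9% higher in Tet1 and 60.5% in HOXA9, against 32.6% and 29.7% of all genes.

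Among the genes of oxygen sensing, HIF1A, the alpha subunit whose protein rather than RNA is usually regulated by oxygen, measured 12.17, 12.17 and 12.15 in the arrays labelled shHMGA2, 12.34 and 12.44 in Tet1, 12.44 and 12.56 in HOXA9, and 12.41, 12.29 and 12.44 in control. The shHMGA2 arrays lay just under all control arrays (log2 difference -0.22, SE 0.061, limma adjusted p = 0.02), and the call was lost without 1 array in 4 of 6 cases, for example without control array 1 (-0.20, limma adjusted p = 0.064). It passed no test in Tet1 (log2 difference 0.0081, SE 0.068, limma adjusted p = 0.92) or HOXA9 (log2 difference 0.12, SE 0.068, limma adjusted p = 0.13). With equal array medians it was lower in both, by -0.46 and -0.33. EGLN3, the prolyl hydroxylase that HIF itself induces, measured 7.84, 7.70 and 7.998 in the arrays labelled shHMGA2, 9.57 and 9.50 in Tet1, 9.46 and 9.47 in HOXA9, and 8.06, 7.88 and 8.12 in control. The Tet1 and HOXA9 arrays lay far above all others, 2.86-fold in Tet1 and 2.72-fold in HOXA9 (log2 difference 1.52, SE 0.092, limma adjusted p = 7.6e-08 in Tet1). The difference with equal array medians was 1.05 in Tet1 and 0.99 in HOXA9. In the shHMGA2 arrays EGLN3 did not pass the test (-0.17, limma adjusted p = 0.15) but did without shHMGA2 array 3 (-0.25, limma adjusted p = 0.046). EGLN1, the hydroxylase that sets basal HIF breakdown, passed the test in no comparison as deposited, with group means of 9.93 in shHMGA2, 9.76 in Tet1, 9.72 in HOXA9 and 9.76 in control. It was called lower with equal array medians (-0.47 in Tet1 and -0.49 in HOXA9, limma adjusted p = 0.00031 and 0.00023).

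KDM3A (GRCh38.p14 chromosome 2, 86437044 to 86492716), a histone H3K9 demethylase induced by HIF, was the 1 gene called higher in all 3 groups against control. It measured 9.32, 9.40 and 9.42 in the arrays labelled shHMGA2, 10.32 and 10.33 in Tet1, 10.40 and 10.48 in HOXA9, and 8.87, 8.62 and 8.88 in control. No shHMGA2, Tet1 or HOXA9 array overlapped control, and the Tet1 and HOXA9 arrays lay above the shHMGA2 ones. The difference was 1.51-fold in shHMGA2 (log2 difference 0.59, SE 0.073, limma adjusted p = 0.00013), 2.90-fold in Tet1 (log2 difference 1.54, SE 0.082, limma adjusted p = 3.2e-08) and 3.15-fold in HOXA9 (log2 difference 1.66, SE 0.082, limma adjusted p = 2.3e-08), with 1.07 and 1.20 for the last pair under equal array medians. ANKRD37, an ankyrin-repeat protein strongly induced by low oxygen, measured 7.89, 7.97 and 7.76 in the arrays labelled shHMGA2, 9.46 and 9.40 in Tet1, 9.51 and 9.43 in HOXA9, and 8.13, 7.88 and 8.19 in control. It was higher in Tet1 (log2 difference 1.36, SE 0.094, limma adjusted p = 1.8e-07) and HOXA9 (log2 difference 1.40, SE 0.094, limma adjusted p = 1.7e-07), while the shHMGA2 and control arrays overlapped. Its difference with equal array medians was 0.90 in Tet1 and 0.95 in HOXA9. Its shHMGA2 difference of -0.19 passed only without control array 2 (-0.28, limma adjusted p = 0.019).

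Among secreted factors, ANGPTL4 (chromosome 19, 8364155 to 8374370), an inhibitor of lipoprotein lipase also linked to vessel leakiness and metastasis, had the widest range of the set. It measured 7.10, 6.88 and 6.88 in the arrays labelled shHMGA2, 10.55 and 10.52 in Tet1, 10.63 and 10.76 in HOXA9, and 7.73, 7.18 and 7.36 in control. The Tet1 and HOXA9 arrays were 8.63-fold and 9.64-fold above control (log2 difference 3.11, SE 0.13, limma adjusted p = 6.8e-09 in Tet1; log2 difference 3.27, SE 0.13, limma adjusted p = 4.8e-09 in HOXA9), with 2.64 and 2.81 under equal array medians. The shHMGA2 arrays all lay below control, by 1.39-fold (log2 difference -0.47, SE 0.12, limma adjusted p = 0.011).

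VEGFA (chromosome 6, 43770211 to 43786487), the main growth factor of blood vessels, measured 9.94, 9.69 and 9.77 in the arrays labelled shHMGA2, 10.51 and 10.59 in Tet1, 10.46 and 10.44 in HOXA9, and 10.95, 10.07 and 10.40 in control. It had the largest fall of the set in shHMGA2, 1.60-fold, with no overlap (log2 difference -0.68, SE 0.17, limma adjusted p = 0.0098). Control array 1 stood above the other control arrays, and the difference was -0.44 without it (limma adjusted p = 0.01). Tet1 and HOXA9 arrays lay within the control range (log2 difference 0.073, SE 0.18, limma adjusted p = 0.73 in Tet1; log2 difference -0.026, SE 0.18, limma adjusted p = 0.9 in HOXA9). Tet1 was called higher without control array 1 (0.31, limma adjusted p = 0.024). Under equal array medians VEGFA was -0.39 in Tet1, short of the threshold (limma adjusted p = 0.071), and called lower in HOXA9 (-0.48, limma adjusted p = 0.032). STC2 (chromosome 5, 173314723 to 173328414), a secreted glycoprotein that low oxygen and endoplasmic reticulum stress induce, measured 7.36, 7.41 and 7.90 in the arrays labelled shHMGA2, 6.39 and 6.17 in Tet1, 6.25 and 6.01 in HOXA9, and 6.35, 6.39 and 6.26 in control. Here only the shHMGA2 arrays stood apart, 2.33-fold above control (log2 difference 1.22, SE 0.13, limma adjusted p = 3.7e-05). Its mean of 6.13 in the HOXA9 arrays was the 1 group mean of the set under the 30th percentile of all values (6.22). Its means of 6.28 in Tet1 and 6.33 in control lay just above, so every comparison with control involves values near that level. The lower quartile of all probe sets was 6.22 to 6.25 in the Tet1 and HOXA9 arrays. STC2 passed no test in Tet1 or HOXA9 as deposited but was lower in both under the other scalings (-0.58 in Tet1 and -0.71 in HOXA9 after joint quantile normalization). ADM, which encodes the vasodilator adrenomedullin, averaged 10.58 in shHMGA2, 10.55 in Tet1, 10.55 in HOXA9 and 10.91 in control. It was called lower in Tet1 and HOXA9 by -0.37 each (limma adjusted p = 0.044 in both). The call was lost after quantile normalization and in 4 of 5 fits without 1 array in each comparison, for example without control array 2 (-0.25 in both). It was also lower with equal array medians (-0.83 in Tet1 and -0.82 in HOXA9, limma adjusted p = 0.0004 and 0.00047).

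CA12, a membrane carbonic anhydrase, measured 8.34, 8.15 and 7.87 in the arrays labelled shHMGA2, 9.57 and 9.61 in Tet1, 9.24 and 9.31 in HOXA9, and 9.03, 8.25 and 8.70 in control. The shHMGA2 arrays overlapped control, in which array 2 was low (log2 difference -0.54, SE 0.16, limma adjusted p = 0.029). The call was lost in 4 of 6 fits without 1 array, with the difference at -0.35 without control array 1 (limma adjusted p = 0.099). Tet1 and HOXA9 arrays lay above all control arrays (log2 difference 0.93, SE 0.18, limma adjusted p = 0.00054 in Tet1; log2 difference 0.62, SE 0.18, limma adjusted p = 0.0086 in HOXA9). Equal array medians gave a difference of 0.47 in Tet1 and 0.16 in HOXA9, where it was no longer called. The HOXA9 call was also lost without HOXA9 array 2 (0.58, limma adjusted p = 0.056). BNIP3, a receptor that marks mitochondria for removal, measured 11.35, 11.61 and 11.56 in the arrays labelled shHMGA2, 12.94 and 12.97 in Tet1, 13.05 and 13.09 in HOXA9, and 11.55, 11.51 and 11.65 in control. It was 2.61-fold higher in Tet1 (log2 difference 1.38, SE 0.081, limma adjusted p = 5.8e-08) and 2.83-fold higher in HOXA9 (log2 difference 1.50, SE 0.081, limma adjusted p = 4.3e-08), with no overlap, and did not pass the test in shHMGA2, where the arrays overlapped control (-0.063). BNIP3 stood at 0.92 in Tet1 and 1.04 in HOXA9 with equal array medians. Its relative BNIP3L averaged 11.58 in shHMGA2, 12.20 in Tet1, 12.18 in HOXA9 and 11.59 in control, and its calls in Tet1 (0.61) and HOXA9 (0.59) were lost with equal array medians.

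**Figure D5:**
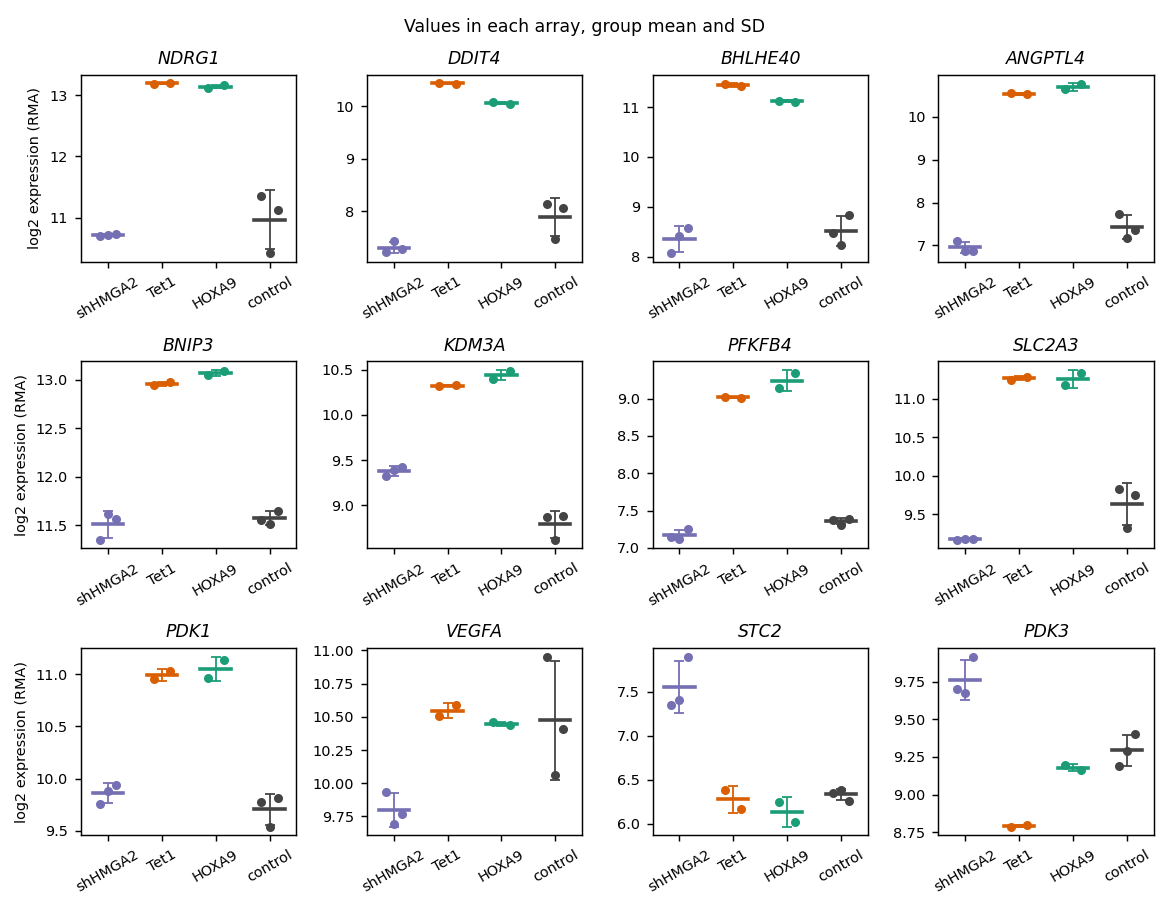
Log2 value of 12 genes in each array, with group mean (line) and SD (bar), for shHMGA2, Tet1, HOXA9 and control. For 9 genes the Tet1 and HOXA9 arrays lie above all others; VEGFA is lowest in shHMGA2, and STC2 and PDK3 are highest there.

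The stress and transcription genes held the largest differences between the array sets after ANGPTL4. NDRG1, a stress protein that restrains growth and migration in many settings, measured 10.71, 10.71 and 10.73 in the arrays labelled shHMGA2, 13.19 and 13.20 in Tet1, 13.12 and 13.16 in HOXA9, and 11.35, 10.42 and 11.13 in control. The Tet1 and HOXA9 arrays were 4.67-fold and 4.52-fold above control (log2 difference 2.22, SE 0.19, limma adjusted p = 7.9e-07 in Tet1; log2 difference 2.17, SE 0.19, limma adjusted p = 1.1e-06 in HOXA9). Equal array medians gave 1.76 in Tet1 and 1.72 in HOXA9. Control spread over 0.93, the widest control range of the set, against a shHMGA2 SD of 0.010. NDRG1 passed the shHMGA2 test only without the low control array 2 (-0.52, limma adjusted p = 0.00051; -0.25 with it).

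DDIT4 (chromosome 10, 72273924 to 72276036), an inhibitor of mTOR signalling also called REDD1, measured 7.22, 7.42 and 7.27 in the arrays labelled shHMGA2, 10.45 and 10.44 in Tet1, 10.08 and 10.05 in HOXA9, and 8.13, 7.47 and 8.05 in control. It was 5.88-fold higher in Tet1 (log2 difference 2.56, SE 0.15, limma adjusted p = 6.4e-08) and 4.53-fold higher in HOXA9 (log2 difference 2.18, SE 0.15, limma adjusted p = 2.1e-07), and 1.50-fold lower in shHMGA2 (log2 difference -0.58, SE 0.14, limma adjusted p = 0.0077), with no overlap in any of these. Under equal array medians DDIT4 stood at 2.09 in Tet1 and 1.72 in HOXA9. Both Tet1 arrays lay above both HOXA9 arrays, by 0.38 (95% interval 0.014 to 0.74, limma adjusted p = 0.52). BHLHE40 (chromosome 3, 4979437 to 4985323), a repressor that HIF and circadian signals induce, measured 8.08, 8.42 and 8.58 in the arrays labelled shHMGA2, 11.47 and 11.42 in Tet1, 11.13 and 11.11 in HOXA9, and 8.49, 8.23 and 8.84 in control. It was 7.61-fold higher in Tet1 (log2 difference 2.93, SE 0.16, limma adjusted p = 3.9e-08) and 6.07-fold higher in HOXA9 (log2 difference 2.60, SE 0.16, limma adjusted p = 9.9e-08), and overlapped control in shHMGA2. Equal array medians gave 2.46 in Tet1 and 2.15 in HOXA9. MXI1, which opposes MYC, measured 7.76, 7.85 and 7.78 in the arrays labelled shHMGA2, 8.93 and 9.01 in Tet1, 8.98 and 8.94 in HOXA9, and 7.97, 7.81 and 7.84 in control. It was 2.14-fold higher in Tet1 (log2 difference 1.10, SE 0.068, limma adjusted p = 8.7e-08) and 2.13-fold higher in HOXA9 (log2 difference 1.09, SE 0.068, limma adjusted p = 1.1e-07), and the shHMGA2 arrays overlapped control. MXI1 stood at 0.63 in Tet1 and 0.64 in HOXA9 with equal array medians. ERO1A, an oxidase of protein folding in the endoplasmic reticulum, passed no test as deposited, with means of 11.93 in shHMGA2, 11.97 in Tet1, 12.03 in HOXA9 and 12.07 in control. ERO1A was called lower with equal array medians (-0.56 in Tet1 and -0.49 in HOXA9, limma adjusted p = 6.7e-05 and 0.00022).

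Both glucose transporters fell in shHMGA2. SLC2A1 (chromosome 1, 42925353 to 42958868), the widespread transporter GLUT1, measured 12.29, 12.16 and 11.95 in the arrays labelled shHMGA2, 12.81 and 12.79 in Tet1, 12.72 and 12.73 in HOXA9, and 12.62, 12.53 and 12.58 in control. The shHMGA2 arrays lay below all control arrays, by 1.36-fold (log2 difference -0.45, SE 0.077, limma adjusted p = 0.0012). It was called higher in Tet1 by 0.22 (limma adjusted p = 0.034) and not in HOXA9 (0.15, limma adjusted p = 0.14). The Tet1 call was lost with the replicate number as a block (0.18, limma adjusted p = 0.075) and in 4 of 5 fits without 1 array, for example without Tet1 array 1 (0.21, limma adjusted p = 0.13). SLC2A1 with equal array medians was lower in both (-0.25 and -0.31). SLC2A3 (chromosome 12, 7919230 to 7936187), the high-affinity transporter GLUT3, measured 9.17, 9.18 and 9.19 in the arrays labelled shHMGA2, 11.25 and 11.29 in Tet1, 11.18 and 11.34 in HOXA9, and 9.83, 9.33 and 9.75 in control. It was 1.37-fold lower in shHMGA2 (log2 difference -0.46, SE 0.11, limma adjusted p = 0.008), 3.11-fold higher in Tet1 (log2 difference 1.63, SE 0.12, limma adjusted p = 2.6e-07) and 3.09-fold higher in HOXA9 (log2 difference 1.63, SE 0.12, limma adjusted p = 3.2e-07), with no overlap in any of these and 1.17 in both under equal array medians.

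In upper glycolysis, from glucose to triose phosphate, 3 of 11 enzymes fell in shHMGA2 and none rose, where 12.6% of all genes were lower and 13.6% higher. HK1, the housekeeping hexokinase, measured 9.52, 9.60 and 9.50 in the arrays labelled shHMGA2, 9.53 and 9.55 in Tet1, 9.60 and 9.67 in HOXA9, and 9.81, 9.93 and 9.90 in control. It was lower in all 3 groups than in control without overlap, 1.27-fold in shHMGA2 (log2 difference -0.34, SE 0.057, limma adjusted p = 0.0011), 1.27-fold in Tet1 (log2 difference -0.34, SE 0.064, limma adjusted p = 0.0004) and 1.19-fold in HOXA9 (log2 difference -0.25, SE 0.064, limma adjusted p = 0.0038). Equal array medians put it lower still (-0.81 in Tet1 and -0.70 in HOXA9). HK2, the inducible hexokinase of many tumours, measured 10.35, 10.49 and 10.22 in the arrays labelled shHMGA2, 11.19 and 11.22 in Tet1, 11.19 and 11.15 in HOXA9, and 10.47, 10.61 and 10.72 in control. It was higher in Tet1 (0.61, limma adjusted p = 4.9e-05) and HOXA9 (0.57, limma adjusted p = 9e-05), calls lost with equal array medians (0.14 and 0.12). In shHMGA2 it overlapped control (log2 difference -0.24, SE 0.079, limma adjusted p = 0.039), and the call was lost in 4 of 6 fits without 1 array, for example without shHMGA2 array 3 (-0.18, limma adjusted p = 0.15).

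The phosphofructokinase isoforms, which catalyse the committed step, differed in direction. PFKP (chromosome 10, 3067548 to 3136805), the platelet form, measured 10.77, 10.73 and 10.53 in the arrays labelled shHMGA2, 10.96 and 10.97 in Tet1, 11.12 and 11.14 in HOXA9, and 11.10, 11.16 and 11.06 in control. It was 1.35-fold lower in shHMGA2 (log2 difference -0.43, SE 0.067, limma adjusted p = 0.0006) and passed no test in Tet1 or HOXA9 as deposited, while it was lower in both with equal array medians (-0.61 and -0.43), and in Tet1 with the replicate number as a block (-0.19, limma adjusted p = 0.026). PFKL, the liver form, measured 9.10, 9.05 and 9.04 in the arrays labelled shHMGA2, 10.05 and 9.97 in Tet1, 9.82 and 9.77 in HOXA9, and 8.92, 8.88 and 9.13 in control. It was 2.05-fold higher in Tet1 (log2 difference 1.03, SE 0.077, limma adjusted p = 3e-07) and 1.76-fold higher in HOXA9 (log2 difference 0.81, SE 0.077, limma adjusted p = 2e-06), with 0.57 and 0.36 under equal array medians. PFKM, the muscle form, measured 9.97, 9.93 and 10.06 in the arrays labelled shHMGA2, 9.37 and 9.38 in Tet1, 9.26 and 9.52 in HOXA9, and 9.84, 9.72 and 9.89 in control. It was 1.36-fold lower in Tet1 (log2 difference -0.44, SE 0.084, limma adjusted p = 0.00042) and 1.35-fold lower in HOXA9 (log2 difference -0.43, SE 0.084, limma adjusted p = 0.00055) without overlap, while the shHMGA2 arrays lay just above control without passing the test (0.17, limma adjusted p = 0.12). PFKM stood at -0.91 in Tet1 and -0.89 in HOXA9 with equal array medians.

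PFKFB3 and PFKFB4 make and remove fructose 2,6-bisphosphate, the activator of phosphofructokinase. PFKFB3 measured 9.38, 9.42 and 9.21 in the arrays labelled shHMGA2, 10.65 and 10.65 in Tet1, 10.61 and 10.61 in HOXA9, and 9.52, 9.27 and 9.28 in control. The Tet1 and HOXA9 arrays were 2.45-fold and 2.39-fold above control (log2 difference 1.29, SE 0.088, limma adjusted p = 1.6e-07 in Tet1; log2 difference 1.25, SE 0.088, limma adjusted p = 2.2e-07 in HOXA9), with 0.83 in Tet1 and 0.80 in HOXA9 under equal array medians. PFKFB4 (chromosome 3, 48517684 to 48563136) measured 7.15, 7.12 and 7.25 in the arrays labelled shHMGA2, 9.02 and 9.01 in Tet1, 9.14 and 9.34 in HOXA9, and 7.37, 7.31 and 7.39 in control. It was 3.16-fold higher in Tet1 (log2 difference 1.66, SE 0.073, limma adjusted p = 8.5e-09). In HOXA9 it was 3.69-fold higher (log2 difference 1.88, SE 0.073, limma adjusted p = 3.5e-09). Equal array medians gave 1.19 in Tet1 and 1.43 in HOXA9. All shHMGA2 arrays were below control (-0.18), short of the threshold as deposited (limma adjusted p = 0.059) and past it after quantile normalization (-0.20, limma adjusted p = 0.025), with equal array medians (-0.21, limma adjusted p = 0.039) and without shHMGA2 array 3 (-0.22, limma adjusted p = 0.049).

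The aldolases split fructose bisphosphate. ALDOC, the brain form and a known HIF target, measured 8.36, 8.38 and 8.73 in the arrays labelled shHMGA2, 9.84 and 9.66 in Tet1, 9.85 and 9.97 in HOXA9, and 8.57, 8.22 and 8.54 in control. It was 2.47-fold higher in Tet1 (log2 difference 1.31, SE 0.13, limma adjusted p = 2.2e-06) and 2.76-fold higher in HOXA9 (log2 difference 1.46, SE 0.13, limma adjusted p = 1e-06), and overlapped control in shHMGA2. For ALDOC equal array medians gave 0.84 in Tet1 and 1.01 in HOXA9. ALDOA, the main form, had means of 10.43 in shHMGA2, 10.64 in Tet1, 10.59 in HOXA9 and 10.46 in control. Its Tet1 difference of 0.18 (limma adjusted p = 0.016) turned to -0.29 with equal array medians. It was not called without Tet1 array 2 (0.16, limma adjusted p = 0.10) or control array 3 (0.15, limma adjusted p = 0.053). TPI1, triosephosphate isomerase, measured 12.62, 12.61 and 12.59 in the arrays labelled shHMGA2, 13.19 and 13.18 in Tet1, 13.16 and 13.17 in HOXA9, and 12.51, 12.55 and 12.53 in control on the brighter of its 2 probe sets. It was 1.58-fold higher in Tet1 (log2 difference 0.66, SE 0.055, limma adjusted p = 6.7e-07) and 1.56-fold higher in HOXA9 (log2 difference 0.64, SE 0.055, limma adjusted p = 9.8e-07), but by 0.19 and 0.18 with equal array medians. GPI, which isomerises glucose 6-phosphate, passed no test as deposited, with means of 11.85 in shHMGA2, 12.04 in Tet1, 11.98 in HOXA9 and 11.89 in control. Its Tet1 difference of 0.15 passed without control array 1 (0.19, limma adjusted p = 0.031) but was -0.32 with equal array medians.

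In lower glycolysis, from triose phosphate to lactate, 2 of 6 measured enzymes fell in shHMGA2, and all 6 were called higher in Tet1 and in HOXA9 as deposited, of which 2 stayed so under all scalings. Of all genes 12.6% were lower in shHMGA2, 53.9% higher in Tet1 and 54% higher in HOXA9 as deposited. With equal array medians 2 of the 6 enzymes were higher and 2 lower in Tet1, and 2 higher and 1 lower in HOXA9. Under that scaling 21.9% of all genes were higher and 51.4% lower in Tet1, and 20.3% and 51.1% in HOXA9. PGK1, an enzyme that makes ATP and a classic HIF target, was 1 of the 2 enzymes higher under all scalings. It measured 12.18, 12.29 and 12.34 in the arrays labelled shHMGA2, 13.29 and 13.34 in Tet1, 13.37 and 13.40 in HOXA9, and 12.40, 12.34 and 12.39 in control. It was 1.92-fold higher in Tet1 (log2 difference 0.94, SE 0.065, limma adjusted p = 1.7e-07) and 2.01-fold higher in HOXA9 (log2 difference 1.01, SE 0.065, limma adjusted p = 1.3e-07), with 0.47 and 0.55 under equal array medians. ENO2, the neuronal enolase, was the other and measured 9.06, 9.15 and 9.10 in the arrays labelled shHMGA2, 10.77 and 10.70 in Tet1, 10.78 and 10.84 in HOXA9, and 9.35, 9.26 and 9.51 in control. It was 2.57-fold higher in Tet1 (log2 difference 1.36, SE 0.075, limma adjusted p = 4.3e-08) and 2.71-fold higher in HOXA9 (log2 difference 1.44, SE 0.075, limma adjusted p = 3.4e-08), and 1.21-fold lower in shHMGA2 (log2 difference -0.27, SE 0.068, limma adjusted p = 0.011), without overlap. For ENO2 equal array medians gave 0.89 in Tet1 and 0.98 in HOXA9.

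PKM, the pyruvate kinase, measured 12.58, 12.49 and 12.50 in the arrays labelled shHMGA2, 13.02 and 12.96 in Tet1, 13.19 and 13.20 in HOXA9, and 12.89, 12.71 and 12.79 in control. It fell 1.21-fold in shHMGA2 (log2 difference -0.27, SE 0.060, limma adjusted p = 0.0056), with every shHMGA2 array below control. Its Tet1 difference was 0.19 as deposited and -0.27 with equal array medians, and its HOXA9 difference 0.40 and -0.052, so neither has a settled direction. The Tet1 call was also lost without Tet1 array 1 (0.16, limma adjusted p = 0.13) or control array 2 (0.15, limma adjusted p = 0.072). GAPDH, a triose phosphate dehydrogenase, and ENO1, the main enolase, were 0.26 and 0.33 higher in Tet1 and 0.28 and 0.33 higher in HOXA9 as deposited, but below 0 under both other scalings (after quantile normalization, -0.17 and -0.092 in Tet1 and -0.12 and -0.083 in HOXA9, of which GAPDH in Tet1 passed the test). LDHA, which turns pyruvate into lactate, was 0.58 higher in both as deposited, and 0.11 and 0.12 higher with equal array medians, where it was not called. In shHMGA2 every ENO1 array lay below control (-0.11), short of the threshold as deposited (limma adjusted p = 0.14). ENO1 was called lower there after quantile normalization (-0.14, limma adjusted p = 0.049) and with an intensity trend (-0.11, limma adjusted p = 0.016). GAPDH (-0.0455) and LDHA (-0.0559) did not pass the shHMGA2 test (limma adjusted p = 0.58 and 0.55). The 5 shared PGAM1 and PGAM4 probe sets had means of 12.37 to 12.55 in shHMGA2, 11.76 to 12.06 in Tet1, 11.84 to 12.11 in HOXA9 and 12.34 to 12.53 in control. They were not tested. The Tet1 and HOXA9 means were thus below those of control, while every measured enzyme of lower glycolysis was higher there as deposited.

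The pyruvate dehydrogenase kinases, which switch off the entry of pyruvate into the mitochondria, differed from each other. PDK1, a HIF target, measured 9.75, 9.88 and 9.94 in the arrays labelled shHMGA2, 10.96 and 11.04 in Tet1, 10.97 and 11.14 in HOXA9, and 9.77, 9.54 and 9.81 in control. It was 2.45-fold higher in Tet1 (log2 difference 1.29, SE 0.092, limma adjusted p = 2.3e-07) and 2.54-fold higher in HOXA9 (log2 difference 1.35, SE 0.092, limma adjusted p = 2e-07), and overlapped control in shHMGA2. For PDK1 equal array medians gave 0.82 in Tet1 and 0.89 in HOXA9. PDK3 (chromosome X, 24465286 to 24550466), also reported as hypoxia-induced, measured 9.70, 9.67 and 9.91 in the arrays labelled shHMGA2, 8.79 and 8.80 in Tet1, 9.20 and 9.16 in HOXA9, and 9.19, 9.29 and 9.40 in control. It rose 1.38-fold in shHMGA2 (log2 difference 0.47, SE 0.075, limma adjusted p = 0.00076) and was 1.42-fold lower in Tet1 (log2 difference -0.50, SE 0.084, limma adjusted p = 0.00015), with no overlap in either, and overlapped control in HOXA9 (log2 difference -0.12, SE 0.084, limma adjusted p = 0.23). PDK3 was called lower in both with equal array medians (-0.97 in Tet1 and -0.57 in HOXA9). Within the wider pyruvate dehydrogenase list, 2 of 10 measured genes were higher and 1 lower in shHMGA2, 3 higher and 5 lower in Tet1, and 4 higher and 5 lower in HOXA9. Equal array medians gave 1 higher and 7 lower in Tet1, and 2 higher and 6 lower in HOXA9. Of all genes 21.9% were then higher and 51.4% lower in Tet1, and 20.3% and 51.1% in HOXA9. As deposited, 13.6% of all genes were higher and 12.6% lower in shHMGA2, 53.9% and 23.2% in Tet1, and 54% and 21.6% in HOXA9. PDK4, the kinase of fasting, was 2.25 higher in Tet1 (limma adjusted p = 2.3e-06) and 2.30 higher in HOXA9 (limma adjusted p = 2.3e-06). PDHX, a structural subunit of the complex, was lower there by -0.85 and -0.86 (limma adjusted p = 2.3e-07 and 2.4e-07).

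Regulators of HIF were read for comparison. Of 11 measured, 2 were higher and 3 lower in shHMGA2, 2 higher and 6 lower in Tet1, and 2 higher and 5 lower in HOXA9. The same counts with equal array medians were 1 higher and 9 lower in Tet1, and likewise in HOXA9. Under that scaling 21.9% of all genes were higher and 51.4% lower in Tet1, and 20.3% and 51.1% in HOXA9. The shares of all genes called as deposited were 13.6% higher and 12.6% lower in shHMGA2, 53.9% and 23.2% in Tet1, and 54% and 21.6% in HOXA9. EPAS1, which encodes the other main HIF alpha subunit, averaged 8.41 in shHMGA2, 9.52 in Tet1, 9.26 in HOXA9 and 9.52 in control, a fall of -1.10 in shHMGA2 (limma adjusted p = 6.5e-06). ARNT, the partner of the alpha subunits, was 0.36 higher in shHMGA2 (limma adjusted p = 0.0011). CITED2, which competes with HIF for its coactivators, was lower in all 3, by -0.37 in shHMGA2, -0.59 in Tet1 and -0.71 in HOXA9 (limma adjusted p = 0.0037, 5.2e-05 and 1.4e-05). CREBBP, one of those coactivators, was lower in Tet1 (-0.97, limma adjusted p = 3e-07) and HOXA9 (-0.94, limma adjusted p = 4.6e-07), and HIF3A, whose product can restrain the others, was higher (0.94 and 0.77, limma adjusted p = 2.6e-07 and 1.2e-06).

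Hypoxia-induced genes outside the set were read in the same way. Of 34 measured, 14 fell and 5 rose in shHMGA2, against 12.6% lower and 13.6% higher of all genes, with a median of -0.13. The largest of these falls were CXCR4, a chemokine receptor of metastasis (-0.63, limma adjusted p = 0.026), TPBG (-0.59, limma adjusted p = 0.0012) and P4HA2, a collagen prolyl hydroxylase (-0.53, limma adjusted p = 9.4e-05). For CXCR4 the groups overlapped, with 8.14, 8.36 and 7.92 in the arrays labelled shHMGA2 and 8.28, 8.79 and 9.23 in control. In both Tet1 and HOXA9 27 of the 34 were higher and 3 lower as deposited, where 53.9% of all genes in Tet1 and 54% in HOXA9 were higher. Scaling to equal medians left 17 higher in each, with 9 lower in Tet1 and 8 in HOXA9. Of all genes 21.9% were then higher and 51.4% lower in Tet1, and 20.3% and 51.1% in HOXA9. TFRC, the transferrin receptor, went the other way, at -2.23 in Tet1 and -2.13 in HOXA9 (limma adjusted p = 7.8e-10 and 1.3e-09), while IGFBP3, a binder of insulin-like growth factors, was 2.23 and 1.87 higher (limma adjusted p = 1.6e-07 and 6.4e-07). HMOX1, heme oxygenase, was the 1 gene of this list called between Tet1 and HOXA9 (0.85 higher in Tet1, limma adjusted p = 0.00039).

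Other isoforms and branches of glycolysis were read last. Of 31 measured genes 5 were higher and 7 lower in shHMGA2, 19 higher and 7 lower in Tet1, and 20 higher and 5 lower in HOXA9 as deposited, where 53.9% of all genes were higher and 23.2% lower in Tet1, and 54% and 21.6% in HOXA9. In shHMGA2 13.6% of all genes were higher and 12.6% lower. Scaled to equal array medians, 8 of the 31 genes were higher and 13 lower in Tet1, and 7 higher and 15 lower in HOXA9. Of all genes 21.9% were then higher and 51.4% lower in Tet1, and 20.3% and 51.1% in HOXA9. FBP1, which runs the phosphofructokinase step backwards in gluconeogenesis, was lower by -1.50 in Tet1 and -1.31 in HOXA9 (limma adjusted p = 7.4e-07 and 2.4e-06). TIGAR, which lowers fructose 2,6-bisphosphate, was 0.52 higher in shHMGA2 (limma adjusted p = 0.00044). Beside the Tet1 and HOXA9 results, proliferation markers were lower, with 5 of 5 called in Tet1 and 4 of 5 in HOXA9, and a mean of 10.94 to 10.96 in Tet1 arrays, 10.99 to 11.05 in HOXA9 arrays and 11.74 to 11.98 in control. Of the 9 HEK293 genes 6 were called higher and 1 lower in Tet1, and 5 higher and 2 lower in HOXA9, with means of 7.09 to 7.15 in Tet1, 6.98 to 7.11 in HOXA9 and 6.59 to 6.69 in control. Under equal array medians 4 were higher and 3 lower in Tet1, and 2 higher and 3 lower in HOXA9. The part of either list in the results was not tested.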

How the data were processed

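The authors deposited 1 table of log2 expression values per probe set. The submitters' processing notes name RMA and R 2.11, and do not say if the arrays were processed as 1 batch. Of its 12 columns, Tet1 replicate 3 and HOXA9 replicate 3 equal the mean of the other 2 of their group and were left out, leaving 10 arrays. Of 33297 probe sets, 19460 carry 1 gene symbol, 1754 several and 12083 none in the platform annotation; symbols were checked through Entrez identifiers and 0 changed. For the 769 genes with several probe sets, that with the highest mean was used, giving 18417 genes. Depth has no counterpart on arrays, and the number of arrays limits precision.

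The groups were fitted in 1 linear model with limma 3.58.1 in R 4.3.3 (6 residual and 5.646 prior degrees of freedom), two-sided, with Benjamini-Hochberg adjustment over all genes; called means an adjusted p under 0.05. The steps were tested on simulated data. The members and lists were chosen with earlier results of these data known. Values per array are given for members called in shHMGA2 against control or Tet1 against HOXA9, or called the same way under all 3 scalings in Tet1 or HOXA9 against control. Other members are given as means, differences and counts. From each context list up to 3 called genes with the largest differences per comparison are named. Alternatives were joint quantile normalization, equal array medians, an intensity trend, no dim genes (under the 30th percentile), the mean of all probe sets of a gene, only the groups compared, all 12 columns, a replicate block and leaving out each array. The block was not used in the main fit, since the labels do not say that arrays of the same number were paired. Deviations of shHMGA2 and control arrays of the same number correlated at 0.164, 0.14 and 0.002, and those of Tet1 and HOXA9 at 0.168. These small values do not settle whether the numbers pair the arrays.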

Additional observations from a re-analysis of the deposited data

How the results depend on the processing

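With the replicate number as a block, shHMGA2 against control had 2530 genes higher and 2355 lower, and 3 members higher and 12 lower, HK2 losing its call (limma adjusted p = 0.053) and ADM gaining one (0.046). With the block in Tet1 against control, SLC2A1 lost its call (0.18, limma adjusted p = 0.075) and PFKP gained one (-0.19, limma adjusted p = 0.026). With only the groups compared, 2314 genes were higher and 1958 lower in shHMGA2 than in control, and 3 members higher and 10 lower, CA12 (limma adjusted p = 0.074) and HK2 (0.079) losing their calls. Without 1 array at a time, 1993 to 2290 genes were higher and 1630 to 2237 lower there, and of the members 3 were higher and 9 to 13 lower; members higher and lower were 25 to 29 and 3 to 4 in Tet1, and 24 to 25 and 2 to 3 in HOXA9, against control. Between Tet1 and HOXA9, 21 genes were higher and 59 lower as deposited, 55 and 90 after joint quantile normalization, 44 and 99 with only the groups compared, 4 to 17 and 7 to 55 without 1 array, and 454 and 658 with the averaged columns kept, which lower the spread by construction and called 1 member higher (PFKL) and 3 lower (PFKFB4, PKM, PDK3). For Tet1 against control, quantile normalization called 6001 genes higher, equal array medians called 4037 higher and 9472 lower with 14 members lower and a member median of 0.17, and the mean of all probe sets gave a member median of 0.70. For HOXA9 against control, quantile normalization called 5478 higher and 6267 lower with a member median of 0.53, and equal array medians 3730 and 9406 with 14 members lower and a median of 0.15. With equal array medians the median of all genes was -0.22 in Tet1 and -0.21 in HOXA9. After quantile normalization the difference turned negative in Tet1 for HIF1A (-0.12), GAPDH (-0.17), ENO1 (-0.092) and PKM (-0.049), and in HOXA9 for HIF1A (-0.021), SLC2A1 (-0.048), GPI (-0.0056), GAPDH (-0.12) and ENO1 (-0.083). It turned positive for EGLN1 in Tet1 (0.071) and VEGFA in HOXA9 (0.046). With equal array medians it turned negative in Tet1 for HIF1A (-0.46), VEGFA (-0.39), SLC2A1 (-0.25), GPI (-0.32), ALDOA (-0.29), GAPDH (-0.21), ENO1 (-0.13) and PKM (-0.27), and in HOXA9 for HIF1A (-0.33), SLC2A1 (-0.31), GPI (-0.37), PFKP (-0.43), ALDOA (-0.32), GAPDH (-0.17), ENO1 (-0.13) and PKM (-0.052). Dim signal limits STC2 alone among the members.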

Other observations

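Genes of amino acid shortage and endoplasmic reticulum stress, many of them targets of the transcription factor ATF4, share several signals with the hypoxia genes. Of 20 measured, 7 were higher and 3 lower in the arrays labelled shHMGA2 than in control, against 13.6% and 12.6% of all genes. PHGDH, which starts serine synthesis, averaged 10.99 in shHMGA2, 9.55 in Tet1, 9.56 in HOXA9 and 10.10 in control, a rise of 0.89 in shHMGA2 (limma adjusted p = 6.5e-05). SESN2, an inhibitor of mTOR signalling, was 0.65 higher in shHMGA2 (limma adjusted p = 3.1e-05) and ASNS, asparagine synthetase, 0.50 higher (limma adjusted p = 0.0015). Against control, 10 were higher and 5 lower in Tet1, and 9 higher and 4 lower in HOXA9 as deposited, where 53.9% of all genes were higher and 23.2% lower in Tet1, and 54% and 21.6% in HOXA9. Under equal array medians 5 were higher and 10 lower in Tet1, and 2 higher and 11 lower in HOXA9. Of all genes 21.9% were then higher and 51.4% lower in Tet1, and 20.3% and 51.1% in HOXA9. PSAT1, the next enzyme of serine synthesis, was lower by -1.58 in Tet1 and -1.56 in HOXA9 (limma adjusted p = 3.4e-08 and 4.3e-08). ATF3, a stress-induced transcription factor, was 1.06 and 0.81 higher there (limma adjusted p = 4.6e-07 and 4.3e-06).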
